A study of Homo sapiens with 3 samples.

Results

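In 786-O cells, a clear cell renal carcinoma line, 1500 of 35241 TEAD regions bridged neighbouring H3K27ac regions with their summit in the unmarked stretch, a share of 4.26% (95% Wilson interval 4.05 to 4.47%). A TEAD region was taken into this set when its interval shared at least 1 bp with 2 or more H3K27ac regions on chromosomes 1 to 22 and X and its summit lay in none of them. The series holds 3 libraries from this line, 1 immunoprecipitated for H3K27ac, 1 for TEAD and 1 of input chromatin, with no replicate of any of them. Cells were fixed in 1% formaldehyde for 10 min. The deposited peak lists for H3K27ac (52667 regions) and TEAD were used, with positions on hg19. The peak names in the TEAD list carry TEF1 and TEF3, older names of TEAD proteins.

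TEAD proteins bind DNA and recruit the co-activators YAP and TAZ, the effectors that the Hippo kinase cascade holds back. H3K27ac is an acetyl mark on the histone H3 tail, found on nucleosomes at active enhancers and promoters. Where a factor occupies DNA, nucleosomes are often displaced, so that the mark can appear as a pair of shoulders around a dip, which is commonly called a valley. A valley here is only a stretch between H3K27ac regions where the caller found no peak. How deep the H3K27ac signal fell inside it was not analysed here, since no signal track was used.

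The set was chosen by the interval overlaps and summit positions of these same lists. All values below are therefore descriptions of these libraries, with no test and no replicate error. Intervals cover counting error, or the spread over regions for a median, and p-values are given for none of them. In 1495 of the 1500 regions the touched H3K27ac regions lay on both sides of the TEAD summit, and 4 regions touched 3 H3K27ac regions. In the remaining 5, on chromosomes 5, 8, 9 and 10, both touched H3K27ac regions lay on the same side of the summit. Their TEAD regions were wide, from 1129 to 1728 bp, with folds from 14.2 to 32.1. They were kept in the count of 1500 and left out of the gap and flank values, which refer to the 1495 valleys.

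The gaps were narrow. Their median width was 236 bp (interquartile range 183.5 to 309 bp), and the narrowest was 132 bp. Of the 1495 valleys, 495 had a gap of at most 200 bp (33.1%), 133 a gap over 400 bp (8.90%) and 9 a gap over 600 bp. No pair of neighbouring H3K27ac regions anywhere in the list was closer than 132 bp, and 70 gaps had exactly that width. Narrower dips, if present, fell inside a single H3K27ac region and could not enter the set. The width of the TEAD region limited the other end, because its interval had to reach both flanks. TEAD regions in the set were 597 bp wide at the median (489.75 to 740 bp), against 463 bp for all TEAD regions. They reached a median of 157 bp into the lower-coordinate flank and 166 bp into the upper one.

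TEAD summits sat towards the centre of the gap, most clearly in gaps over 200 bp. The median distance from the gap centre was 44 bp (interquartile range 22.5 to 70 bp), and 847 of 1495 summits lay within 50 bp of it (56.7%). When each gap was cut into 3 equal parts, the middle part held 662 summits, 44.3% (41.8 to 46.8%), the lower part 416 and the upper part 417. Cut into 10 equal parts, the outermost held 87 and 76 summits and the central pair 192 and 216. Neither direction along the chromosome was favoured, with 49.2% (46.7 to 51.8%) of summits on the lower-coordinate side of the gap centre. In wide gaps, summits of regions that spanned the gap were more central than TEAD summits at large. The rule itself favours this, because an interval around an off-centre summit less easily reaches both flanks of a wide gap. Without that demand, the middle part held 40.3% of all TEAD summits in gaps of at most 600 bp. In gaps of 301 to 400 bp the middle of the 3 parts held 54.9% of the valley summits, but 43.2% (39.0 to 47.5%) of all TEAD summits lying in such gaps, whether or not the region reached both flanks. In gaps of at most 200 bp both values were close, 36.8% (32.6 to 41.1%) and 36.6% (32.6 to 40.8%). An even share over the 3 parts lay within both intervals, so centring was not resolved in these gaps. There, 50 bp on each side of the centre also covers much of the gap.

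**Figure D1:**
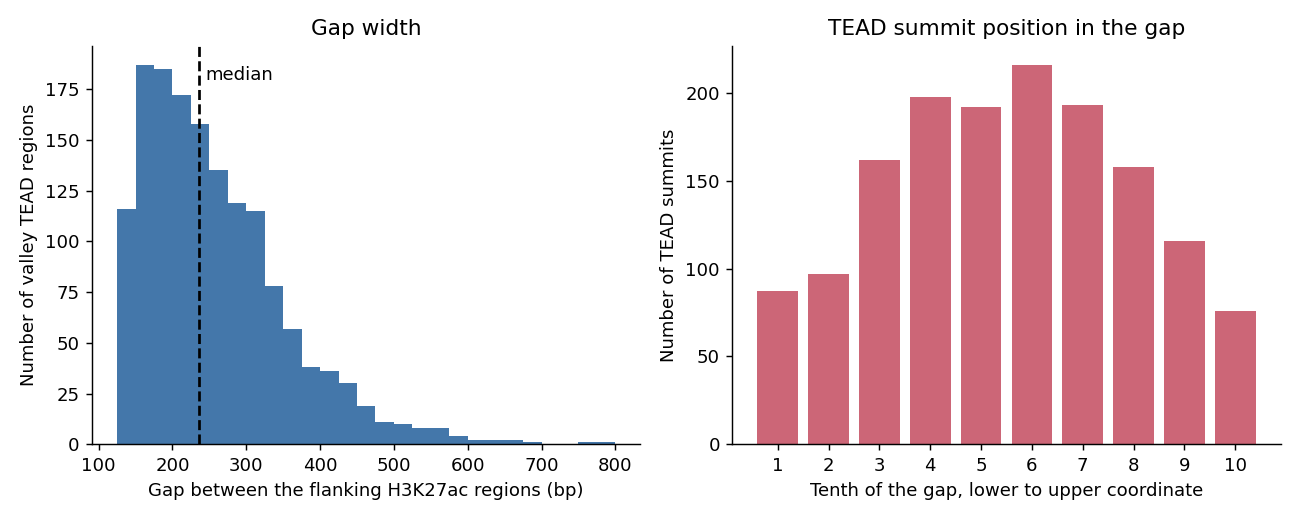
Left, the number of valley TEAD regions by width of the gap between the flanking H3K27ac regions (bp, 25 bp bins, dashed line at the median of 236 bp). Right, the number of TEAD summits in 10 equal parts of the gap from its lower to its upper coordinate; the outermost parts hold 87 and 76 summits and the central pair 192 and 216.

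Over all valleys, the median distance to the H3K27ac summit was similar for lower- and upper-coordinate flanks. The 2 distances within a valley were not set against each other. They could differ widely, as 549 and 5153 bp at the chromosome 1 valley from 86072488 to 86073627. From the TEAD summit, the H3K27ac summit of the lower-coordinate flank lay 425 bp away at the median (342 to 577 bp) and that of the upper-coordinate flank 420 bp (335 to 558 bp). Of the 2990 flank summits, 1211 lay 200 to 400 bp from the TEAD summit and 1062 lay 400 to 600 bp from it. Only 69, or 2.31% (1.83 to 2.91%), were nearer than 200 bp. In 866 valleys (57.9%) both flank summits lay between 200 and 600 bp. The 2 flank summits were 893 bp apart at the median (742.5 to 1151.5 bp). Within the flanks, the summit lay 289 bp (lower) and 281 bp (upper) from the edge facing the gap. This distance became shorter as gaps became wider, from 304 bp in gaps of at most 200 bp to 249 bp in gaps of 401 to 600 bp. The distance between TEAD and flank summits rose over the same classes from 402 bp to 476.5 bp. Measured from the gap centre, flank summits lay 432 bp away at the median in gaps of at most 600 bp with a TEAD summit. In such gaps without one the median was 478 bp. With both flanks at most 2 kb wide, the medians were 416 and 412.5 bp. The median spacing was thus not particular to gaps with a TEAD summit.

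The 10 valleys of highest TEAD fold ranged from 68.4- to 86.2-fold, with 182 to 451 reads at the TEAD summit. The highest, with 86.2-fold over background (counting interval 75.7 to 97.7) and a pileup of 243 reads, spanned 176621066 to 176621874 of chromosome 5. Its gap was 470 bp wide and its flanks had H3K27ac folds of 9.92 and 7.75, with their summits 527 and 488 bp from the TEAD summit. A chromosome 10 valley (2153960 to 2154805) followed with 82.8-fold (73.0 to 93.5) over flanks of only 6.32- and 4.52-fold. On chromosome 22 from 27496464 to 27497286 the fold was 80.2 (71.1 to 90.2), in a gap of 177 bp between flanks of 9.16- and 8.70-fold. The region on chromosome 3 from 101561222 to 101561926 (71.9-fold, 64.3 to 80.1) sat in a gap of 517 bp, with flank summits at 461 and 518 bp. The stronger flank exceeded the weaker 1.05 to 1.52 times in these 4.

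The other 6 had less balanced or longer flanks. The TEAD summit on chromosome 16 (11409087 to 11410812, 77.8-fold) lay 4 bp from the edge of its upper flank, whose fold of 15.7 was 2.93 times that of the lower one. On chromosome 2 (151267171 to 151268442, 74.4-fold) the gap was 136 bp, close to the narrowest width in the list. The chromosome X region (48345526 to 48346683, 72.9-fold) had flanks of 8.17- and 18.8-fold, with its summit 30 bp from the stronger. On chromosome 1, the region from 8685872 to 8687125 (70.9-fold) had its summit 14 bp from its stronger flank. The region from 86072488 to 86073627 (68.5-fold) had a flank of 6648 bp. The region on chromosome 7 from 5630707 to 5632554 (68.4-fold) had the most reads, 451. It lay between a flank of 305 bp at 3.51-fold and one of 5605 bp at 18.8-fold. The counting intervals of all 10 folds overlapped that of the highest except for the last, on chromosome 7, so their order is mostly unresolved.

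**Figure D2:**
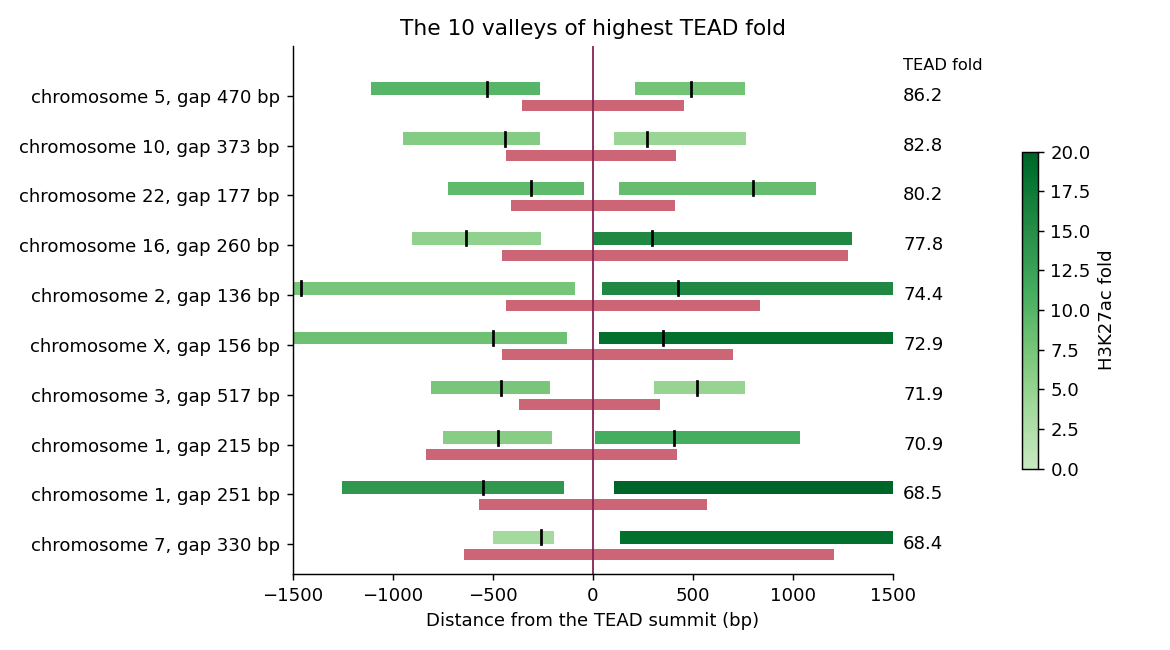
Maps of the 10 valleys of highest TEAD fold, centred on the TEAD summit (vertical line; distance in bp, cut at 1500 bp on each side). Green bars are the flanking H3K27ac regions, shaded by H3K27ac fold, with black ticks at their summits; red bars are the TEAD regions, whose fold is printed at the right, from 68.4 to 86.2.

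The extremes of gap width and of flank fold showed how varied the valleys were. The widest gap lay on chromosome 3 from 177651605 to 177652390 under a TEAD region of 19.4-fold. The next were 772 bp on chromosome 18 (9.34-fold) and 686 bp on chromosome 4 (19.3-fold). All 3 valleys at the narrowest width of 132 bp, on chromosomes 1, 21 and 2, had TEAD folds of 14.6, 7.28 and 4.51. The valley with the strongest pair of flanks lay on chromosome 13, where a TEAD region from 110664282 to 110665129 (40.5-fold) sat between H3K27ac regions of 27.8- and 26.5-fold. A chromosome 9 TEAD region (114803707 to 114804944, 64.3-fold) sat between regions of 9082 and 11803 bp at 24.5- and 27.2-fold. On chromosome 10, from 95218219 to 95219201, the upper flank spanned 17088 bp, and the flanks held 7 further TEAD summits. The most uneven pair, 4.59- against 34.5-fold, lay around the chromosome 8 region from 103665905 to 103666902, whose fold was 21.0. Uneven pairs on chromosome 2 (235858255 to 235858798) and chromosome 12 (118539815 to 118540266) had ratios of 7.49 and 7.08, with TEAD folds of 8.37 and 4.204.

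The flanking H3K27ac regions were of ordinary median strength, with fewer strong regions, and somewhat narrow. Their median fold was 6.68 (interquartile range 4.97 to 9.62) over 2990 flanks, against 6.54 (4.61 to 11.5) for all H3K27ac regions. The 95th percentile was 17.4 in flanks and 21.5 in all regions. The median width of the flanks was 796 bp against 950 bp. Flanks of gaps of at most 600 bp without a TEAD summit had a similar median width, 785 bp. Their median fold was 5.92 (4.47 to 9.91). The low median width and upper quartile of fold were thus not particular to valleys. The upper quartile of width was 1719 bp in those flanks and 1250 bp in valley flanks. The weaker flank had a median fold of 5.39 (4.31 to 7.28) and the stronger 8.48 (6.17 to 11.8). The ratio of stronger to weaker was 1.43 at the median (1.18 to 1.88), with 836 valleys under 1.5 (55.9%), 318 at 2 or more (21.3%) and 73 at 3 or more. Flank summits rested on a median of 25 reads, for which the exact 95% Poisson interval is 16.2 to 36.9 reads, so a ratio of this size is within counting error at a typical valley. The lower-coordinate flank was the stronger in 49.3%. The TEAD summit lay nearer to the stronger flank in 52.7% (50.2 to 55.3%) of valleys with unequal flanks, and in 58.5% (53.0 to 63.8%) of the 318 with a ratio of at least 2.

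The folds of the 2 flanks were related across valleys, with Pearson r = 0.30 and Spearman rho = 0.29 for log2 fold over 1495 valleys. The points share libraries and local background, and valleys are not independent replicates. For comparison, all gaps of at most 600 bp between neighbouring H3K27ac regions were split by whether a TEAD summit lay in them. For log2 flank folds, r was 0.27 over the 2184 gaps with a summit and -0.04 over the 10073 without. The median ratio of stronger to weaker flank was 1.43 (1.41 to 1.46) with a TEAD summit and 1.67 (1.64 to 1.69) without, and it was lower with a summit in each of 6 classes of gap width. The difference was small once long flanks were left out. With both flanks at most 2 kb wide the ratios were 1.39 (1.36 to 1.41) and 1.41 (1.400 to 1.428), and r was 0.23 and 0.11. That limit kept 81.7% of the gaps with and 62.0% of those without a TEAD summit. Over all narrow gaps, the weaker flank had a median fold of 5.05 (4.96 to 5.15) with a TEAD summit and 4.59 (4.56 to 4.64) without, and within the 2 kb limit 4.81 and 4.48. This order was absent in wider gaps, with 4.49 in both at 401 to 500 bp and 4.23 with against 4.46 without at 501 to 600 bp. The stronger flank had a lower median fold with a TEAD summit, 8.04 (7.81 to 8.19) against 8.92 (8.76 to 9.06) over all narrow gaps, but a higher one in gaps of 151 to 200 bp, 9.50 against 9.16, and in those up to 150 bp, 9.94 against 9.06.

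**Figure D3:**
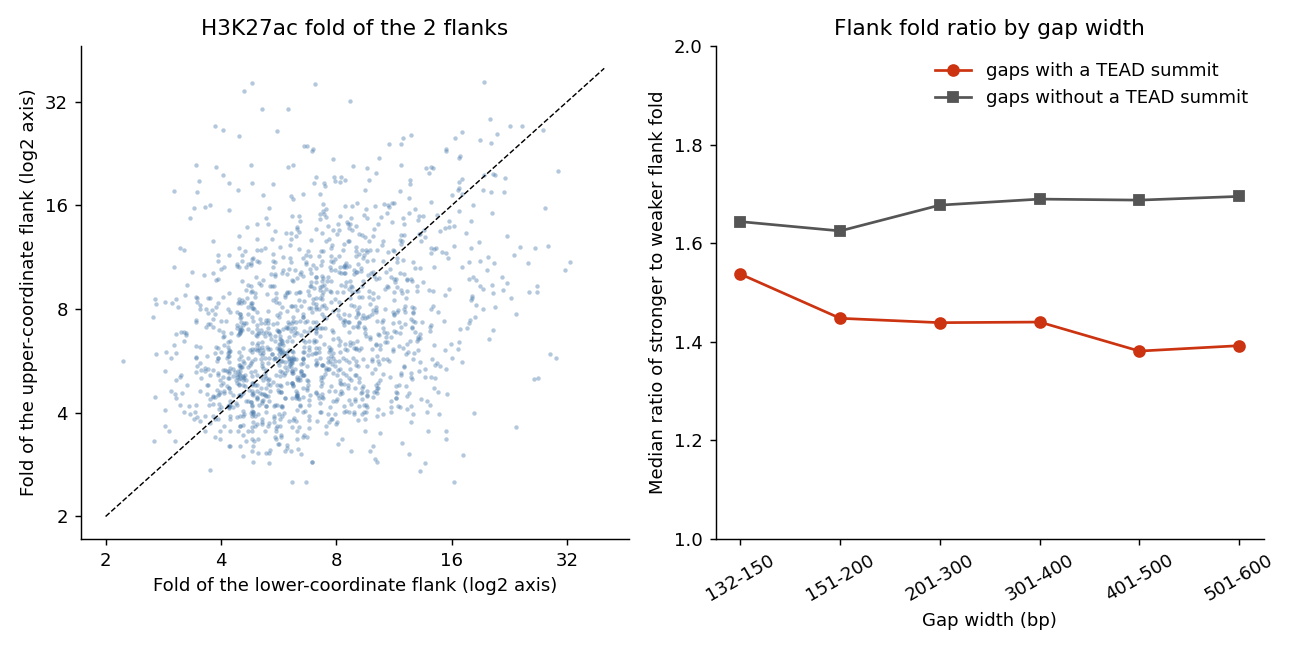
Left, H3K27ac fold of the lower- against the upper-coordinate flank for the 1495 valleys (both axes log2; dashed line, equal folds). Right, the median ratio of stronger to weaker flank fold by gap width for gaps with and without a TEAD summit; it runs from 1.38 to 1.54 with and from 1.62 to 1.69 without, and the vertical axis starts at a ratio of 1.

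Most narrow gaps held no TEAD summit. Of 12257 gaps of at most 600 bp, 2184 held one, 17.8% (17.2 to 18.5%). None held 2 or more. Neighbouring TEAD regions in the list were never closer than 131 bp, and none was narrower than 269 bp. The calling thus left little room for a second summit in such gaps, and no limit on that share is given. The share was 11.1% (9.36 to 13.01%) in gaps of 132 to 150 bp, 19.9% at 201 to 300 bp, 20.04% (18.5 to 21.6%) at 301 to 400 bp and 14.7% (12.6 to 17.0%) at 501 to 600 bp. In 1486 of the 2184, 68.0%, the TEAD region reached both flanks and so belonged to the set; the other 9 valleys had wider gaps.

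Per length of DNA, TEAD summits were denser in narrow gaps than in the acetylated chromatin around them. Gaps of at most 600 bp held 0.61 summits per kb (0.58 to 0.64, exact Poisson interval) and the H3K27ac regions beside them 0.23 (0.23 to 0.24), a ratio of 2.63 (2.51 to 2.76). All H3K27ac regions together held 0.26 per kb. By gap width, the density was 0.79 per kb at 132 to 150 bp and 0.92 (0.83 to 1.01) at 151 to 200 bp. It fell to 0.43 at 401 to 500 bp and 0.27 (0.23 to 0.31) at 501 to 600 bp. The last interval included the values of the flanks and of all H3K27ac regions, so no excess was resolved in that class. Going inward from the edge that faced the gap, the density in the flank fell from 0.36 per kb in the first 50 bp to between 0.10 and 0.11 at 150 to 300 bp. It then rose to 0.35 at 800 to 850 bp in flanks long enough to reach that far. At edges that faced more than 5 kb without H3K27ac, the density just outside was far lower, 0.15 per kb in the first 50 bp and 0.16 at 50 to 100 bp. At the same distances in narrow gaps it was 0.55 and 0.70. A fall and rise was also present inside the regions at edges that faced more than 5 kb. The density there was 0.13 per kb in the first 50 bp, 0.09 at 100 to 150 bp and 0.49 at 800 to 850 bp.

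**Figure D4:**
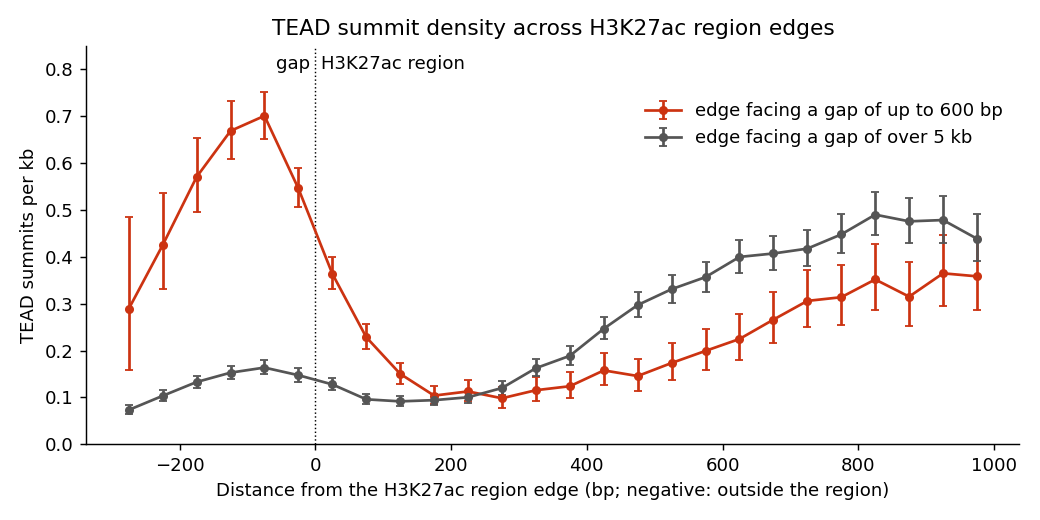
TEAD summits per kb by distance from the edge of an H3K27ac region (bp, 50 bp bins; negative distances lie in the gap) with exact 95% Poisson intervals. Edges facing a gap of up to 600 bp reach 0.70 per kb in the gap and edges facing more than 5 kb reach 0.16; inside a region only the part nearer to the plotted edge is counted.

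The flanks themselves rarely held a further TEAD summit. Neither flank did in 1249 of 1495 valleys (83.5%), 1 flank did in 232 and both did in 14. Counted singly, 260 of 2990 valley flanks held one, 8.70% (7.74 to 9.76%), against 28.2% (27.6 to 28.9%) of flanks of narrow gaps without a TEAD summit. The difference was present in flanks of at most 1000 bp, 0.950% against 7.48%, and in longer ones, 22.1% (19.7 to 24.6%) against 58.2%. Part of each flank was already covered by the valley's own TEAD region, and no second region could be called there.

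TEAD enrichment in the set was above that of the classes touching 1 H3K27ac region. Most of the excess over regions with the summit just outside 1 went with region width. So did part of the excess over regions with the summit inside 1. The median fold was 10.7 (95% interval of the median 10.2 to 11.2; interquartile range 6.91 to 18.8), against 7.62 (7.41 to 7.84) for the 3117 regions with their summit just outside a single H3K27ac region. It was 7.10 for the 19042 that touched 1 H3K27ac region with the summit inside, and 7.14 for all TEAD regions. The rule itself favoured wide TEAD regions, because the interval had to reach both flanks. TEAD regions with a summit in any gap of at most 600 bp, spanning it or not, had a median fold of 8.87. Summits in the set rested on 42 reads at the median (exact Poisson interval 30.3 to 56.8), against 24 in the whole list. The recovered background at the summit was 2.81 reads in the set, as in regions with the summit inside 1 H3K27ac region, and 2.64 in those just outside one.

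Mean log2 fold was 3.55 ± 0.98 (SD over 1500 regions) in the set and 3.11 ± 0.87 (SD over 3117) just outside a single H3K27ac region, a difference of 0.44. Weighted to the same distribution over deciles of TEAD region width, the difference was 0.04. In the sixth and seventh width deciles the median fold was lower in valleys, 8.29 against 8.87 and 9.80 against 10.7. In the widest decile it was higher, 21.0 in 270 valley regions against 14.5 in 169. The set stayed above regions with the summit inside 1 H3K27ac region, by 0.50 without and by 0.26 with the weighting. Against the 11132 TEAD regions that touched no H3K27ac region, the difference was 0.63 without and 0.04 with the weighting. With the weighting, the set thus lay close to both classes with the summit outside H3K27ac. Region width itself grows with enrichment, so matching on width can also remove part of a difference in fold.

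TEAD fold rose with gap width among regions that spanned the gap. The median fold of valley regions was 9.55 in gaps of 132 to 150 bp. From gaps of 151 to 200 bp to gaps of 501 to 600 bp, it rose from 9.35 to 17.8. The rule asks for wider TEAD regions in wider gaps, and their median width rose from 550.5 to 734.5 bp. Because width grows with enrichment, this rise is not separate from the rule. Over the same classes the median fold of all TEAD summits in such gaps ran from 8.95 to 8.74, with no rise. Within the set, TEAD fold was nearly unrelated to the strength of the flanks, with r = 0.07 for the weaker and 0.03 for the stronger flank (log2 values, 1495 valleys). Across quintiles of TEAD fold the weaker flank had median folds of 5.49, 5.23, 5.13, 5.23 and 5.72. The middle of the 3 parts of the gap held 47.2% (41.6 to 52.8%) of summits in the lowest quintile of TEAD fold, 40.1% in the middle one and 49.2% (43.5 to 54.8%) in the highest, so centring did not order with enrichment.

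**Figure D5:**
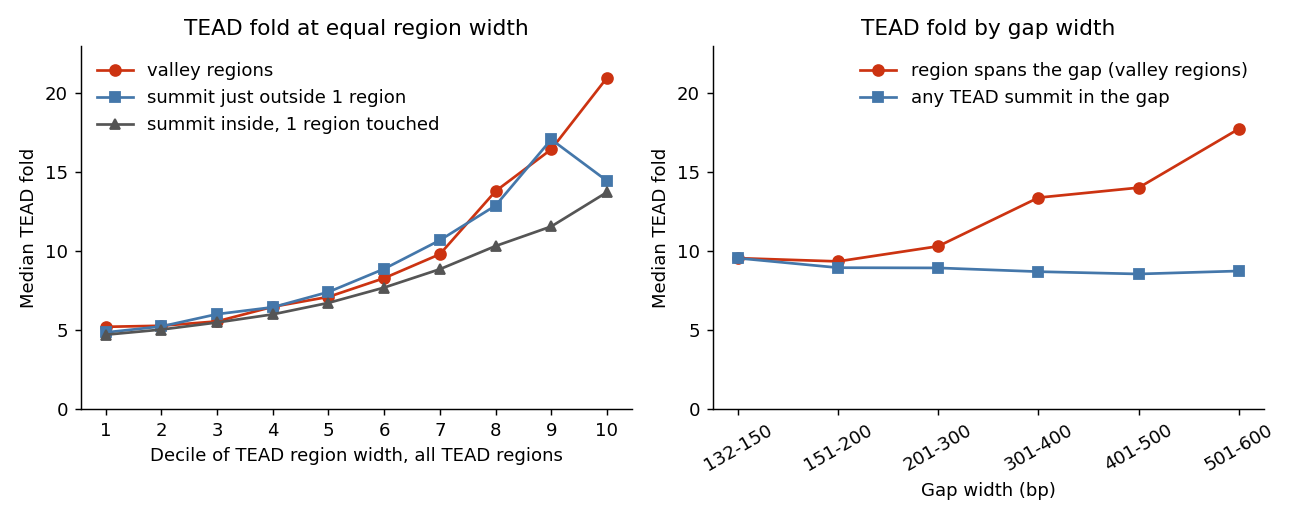
Left, median TEAD fold by decile of TEAD region width for valley regions, regions with the summit just outside 1 H3K27ac region and regions with the summit inside 1; the first pair stay close except in the widest decile (21.0 and 14.5). Right, median TEAD fold by gap width for regions that span the gap, rising to 17.8, and for any TEAD summit in the gap, which stays between 8.55 and 9.55.

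Regions just inside the rule had a lower median fold than those just outside at the overlap limit, and a higher one at the summit limit. These sets were small and no intervals were computed, so neither a difference nor a likeness was resolved. The 47 valleys whose smaller overlap was at most 10 bp had a median fold of 7.35, and the 57 TEAD regions that missed the second H3K27ac region by less than 10 bp had one of 8.21. The 70 valleys with the summit at most 10 bp from an edge had a median fold of 12.3, and the 57 regions touching 2 or more H3K27ac regions with the summit inside by at most 10 bp had one of 10.2. All 450 regions that touched 2 or more with the summit inside had a median fold of 10.8.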

How the data were processed

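Chromatin of 786-O cells was immunoprecipitated for H3K27ac or TEAD, with 1 library each. Per the labels' protocols, libraries were selected for 300 to 700 bp. The submitters' processing notes name fastp, Bowtie2 2.4.5, MACS2 and hg19, with no role, order or parameters. Neither control nor threshold is stated there. The authors deposited per peak the summit offset, a fold enrichment (the ratio of summit signal to local background), −log10 p and −log10 q values, and a whole-number score that was not used. The deposited −log10 q started at 2.05 (H3K27ac) and 2.03 (TEAD).

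Chromosome Y was not used. The flanks of a valley are the nearest H3K27ac regions below and above the TEAD summit, and the gap is the stretch between them. Coordinates are counted from 1. Summit pileups were recovered as the whole number of reads k, with background b, for which (k + 1)/(b + 1) gives the fold and a Poisson count of mean b exceeds k with probability p. All regions met this within 0.002 of −log10 p. H3K27ac regions were joined into clusters over gaps of up to 10 kb.

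Shares carry 95% Wilson intervals and medians carry intervals from binomial order statistics. Both, like the Poisson intervals on pileups and folds, leave out variation between cultures, and reads carry no molecular identifiers. No test was run. The classification and the recovery were tested on simulated data. The rule for the regions named was the 10 of highest TEAD fold, and the 3 each of widest gap, narrowest gap, highest weaker flank and largest flank ratio. The set and these choices were made with earlier results of these data known. Motifs, genes and sequences were not analysed here, since no hg19 genome or annotation was used. Python 3.11.15, pandas 2.3.3, numpy 2.4.6 and scipy 1.17.1 were used.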

Additional observations from a re-analysis of the deposited data

How the results depend on the processing

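Each profile rests on 1 library, so nothing here separates cultures, and depth limits the fold of single flanks most. No paired analysis was possible because each group had 1 library. Of 61 alternative values, 47 were planned and 14 were added once values were known. Of the 61, 33 stayed within the counting interval of the value reported (within 1.5 times for counts) and 28 moved beyond it. Only the differences in flank ratio and in mean log2 TEAD fold could change sign, and neither did in any alternative. The number of valley regions ran from 1007 to 2184. With at least 50 bp shared with each flank, the median gap was 228 bp, the median TEAD fold 11.7 and the weaker flank 5.57-fold. With −log10 q of at least 5 in both lists, flank summits lay 432 bp from the TEAD summit, the weaker flank was 5.78-fold and the flank ratio 1.40. The share of narrow gaps with TEAD was then 18.9%, the difference in flank ratio -0.21 and the density ratio of gaps to flanks 3.02. With TEAD fold of at least 5, the median TEAD fold was 11.7 and the share of gaps with TEAD 15.1%. With summits at least 50 bp from both edges, which removes summits by position, the gap was 268 bp, the middle part of the gap held 63.5% and the weaker flank was 5.16-fold. Taking any TEAD summit in a gap of at most 600 bp gave a gap of 280 bp, 40.3% in the middle part, a fold of 8.87, flank summits at 432 bp and a weaker flank of 5.05-fold. With gaps of at least 200 bp, the median gap was 282 bp, the middle part held 48.1%, the fold was 11.5, flank summits lay at 433 bp, the weaker flank was 5.16-fold and the density ratio 2.46. Gaps of up to 1000 bp held TEAD in 16.5%. The difference in flank ratio between gaps with and without TEAD, -0.24 over all flanks, was -0.025 with both flanks at most 2 kb wide. The difference in mean log2 TEAD fold from regions just outside 1 H3K27ac region, 0.44, was 0.044 at equal width. Without chromosomes 13 and X every value recomputed stayed within its interval. The planned motif, start-site and gene-list alternatives were not run.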

Other observations

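Valleys occurred in small and large clusters of acetylation. H3K27ac regions were joined into clusters over gaps of up to 10 kb. Of the 1495 valleys, 450 (30.1%) lay in a cluster made of their 2 flanks alone, 889 in clusters of 3 to 9 H3K27ac regions and 156 in clusters of 10 or more. The last share, 10.4% (8.99 to 12.1%), compares with 18.0% (17.3 to 18.7%) of all narrow gaps. Valleys seldom followed each other, and only 5 of 2985 flanking H3K27ac regions bordered a valley on both sides.

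Chromosome 13 had the highest share of its TEAD regions in valleys, 36 of 501 or 7.19% (5.24 to 9.79%). Chromosome 22 had the lowest, 2.77% (1.82 to 4.19%). On chromosome X it was 5.41% (4.02 to 7.23%). The median recovered background at H3K27ac regions was lowest on chromosomes 13 and X, 1.48 reads on each, against 2.82 on chromosome 22 and 3.53 on chromosomes 7 and 8, and its part in the share was not tested. Of narrow gaps on chromosome 13, 24.4% (19.0 to 30.7%) held a TEAD summit, against 17.8% over all chromosomes.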
